A study of Mus musculus with 27 samples.

Results

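The 10 genes described here take up, bind, release or activate fatty acids: Lpl, Angptl4, Cd36, Acsl1, Fabp3, Fabp4, Fabp5, Pnpla2, Lipe and Mgll. They were chosen by name for their known role, with earlier results of these data known, out of 37991 genes in the files, and all 10 had enough counts to be tested. The cells came from the calvarial bones, which roof the skull, of neonatal C57BL/6J-Col3.6 CFP mice aged 5 to 9 days, which carry a cyan fluorescent protein (CFP) driven by the Col3.6 fragment of a type I collagen promoter. After 4 days of growth the CFP-positive cells were sorted and returned to a medium with ascorbic acid, β-glycerol phosphate, fetal bovine serum and pen/strep, and RNA was taken every other day from day 2 to day 18. All cultures received this medium, so each group was 1 day of the course (9 days) and there was no untreated arm. The sort preceded the course and rested on the collagen promoter alone, and how many mice were pooled is not given in the sources used here. The question was how these genes, which are best known from fat, muscle and macrophages, behaved while sorted calvarial cells were cultured as osteoblasts.

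Fatty acids reach cells either bound to albumin or inside lipoproteins. Lipoprotein lipase (Lpl) frees them from lipoprotein triglyceride, and Angptl4 is a secreted inhibitor of that lipase. Cd36 is a surface receptor that takes up long-chain fatty acids, Acsl1 couples them to coenzyme A, and the fatty acid binding proteins Fabp3, Fabp4 and Fabp5 carry them through the cytosol. Stored triglyceride is taken apart in order by adipose triglyceride lipase (Pnpla2), hormone-sensitive lipase (Lipe) and monoglyceride lipase (Mgll). Osteoblasts can burn fatty acids, and many of these genes are classical targets of the peroxisome proliferator-activated receptors (PPARs).

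Each day was covered by 3 profiles that shared 1 barcode and differed in the sequencing lane. The study's methods call them triplicate samples. Over genes with whole-number counts, chi-square tests found no difference beyond sampling noise between them (statistic per degree of freedom 0.999 to 1.02, p from 0.0513 to 0.537), so they were summed and counted as 1 library per day. Were they separate cultures, the 27 profiles could be tested as samples, and that fit also gave 8 rises and 1 fall among the 10 genes. A level is given below in TPM (a transcript abundance per unit of length) scaled to a common upper quartile, as the mean over the 3 lane profiles. Its SD, where given, is over the lane profiles and, if they are 1 library, covers sequencing and quantification only. Summed totals ran from 22470195 counts on day 10 to 62009157 on day 12. Osteoblast markers were present. The sum of 8 genes was 1616 to 2418 TPM on days 2 to 6 and 3647 to 4683 TPM on days 14 to 18. None was listed at 0, 6 rose and 2 were not called, beside 28.3% rising and 26.1% falling among all genes tested. Most of that sum was Col1a1, at 1526 TPM on day 2 and 4263 on day 18. Sp7, which was not called, stood at 32.3 TPM on day 2 and between 2.77 and 10.6 TPM from day 4 on.

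A promoter window in RefSeq (build GRCm38.p6, 250 bases before to 50 after the start of transcription) was found for 6 of the 10 genes. Lpl, Fabp4, Fabp5 and Angptl4 had no entry. The windows of Cd36, which with Fabp4 had the largest fitted changes, and of Lipe and Pnpla2, the lipases that rose, are shown from 5′ to 3′ on the strand of the gene. Capitals mark the stretch nearest to AGGTCANAGGTCA, the paired AGGTCA motif bound by PPARs with their RXR partner, with 12 bases compared on both strands. The Cd36 window is chr5:17835847-17836146 on the minus strand, the nearer matching of 2 Lipe windows is chr7:25390063-25390362 on the minus strand and that of Pnpla2 is chr7:141454938-141455237 on the plus strand.
Cd36: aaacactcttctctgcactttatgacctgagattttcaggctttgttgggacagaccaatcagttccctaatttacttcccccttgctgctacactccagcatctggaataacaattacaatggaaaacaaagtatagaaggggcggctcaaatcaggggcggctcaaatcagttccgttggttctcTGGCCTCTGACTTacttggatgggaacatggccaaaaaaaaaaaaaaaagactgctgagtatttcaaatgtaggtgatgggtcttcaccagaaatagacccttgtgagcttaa
Lipe: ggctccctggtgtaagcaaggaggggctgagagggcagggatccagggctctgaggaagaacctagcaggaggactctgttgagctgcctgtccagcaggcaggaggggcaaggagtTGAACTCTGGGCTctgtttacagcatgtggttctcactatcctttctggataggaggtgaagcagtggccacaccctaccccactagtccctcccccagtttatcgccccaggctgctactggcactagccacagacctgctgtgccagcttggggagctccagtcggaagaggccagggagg
Pnpla2: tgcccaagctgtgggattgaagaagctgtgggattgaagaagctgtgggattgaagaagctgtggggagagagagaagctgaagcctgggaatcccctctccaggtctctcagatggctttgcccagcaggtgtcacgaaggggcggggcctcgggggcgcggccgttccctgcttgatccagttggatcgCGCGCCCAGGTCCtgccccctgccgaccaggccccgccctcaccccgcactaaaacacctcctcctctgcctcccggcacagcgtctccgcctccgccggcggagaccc
The Cd36 stretch begins 63 bases before the start of transcription and departs from the element at 2 bases, a closeness found in 3.86% of 32851 windows of this length. The Lipe stretch departs at 3 bases, which 24.6% of windows match or better. In Pnpla2 the nearest stretch departs at 5 bases, which 99.9% of windows match or better. A single AGGTCA stood in 1 of the 9 windows of these genes, that of Cd36, and in 16.3% of all windows. The second Lipe window (chr7:25395938-25396237), not shown, had 4 departures, which 79.8% of windows match or better, and the windows of Acsl1, Fabp3 and Mgll held stretches with 4 or 5. These matches describe letters in the windows and nothing more.

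Over days 2 to 18, 8 of the 10 genes rose, 1 fell (Fabp5) and 1 was not called (Mgll). The fit was a straight line in day through the 9 summed libraries. It was tested with edgeR's quasi-likelihood test and Benjamini-Hochberg adjustment over 15659 genes. A change is the slope times 16 days. This fitted value can exceed the difference between any 2 measured days, as in genes that stayed flat and then climbed. Of all genes tested, 28.3% rose and 26.1% fell in the same fit. The median fitted log2 change of the 10 genes was 3.53, against 0.05 for all genes tested. A curved course (a natural spline with 3 degrees of freedom) passed its test in 10 of the 10 genes, against 57.5% of 16256 genes. Their summed level on days 2, 6, 10, 12 and 18 was 78.8, 107, 224, 499 and 1122 TPM. In cultures of this kind, a higher share of cells of 1 type and more RNA per cell cannot be told apart.

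**Figure D1:**
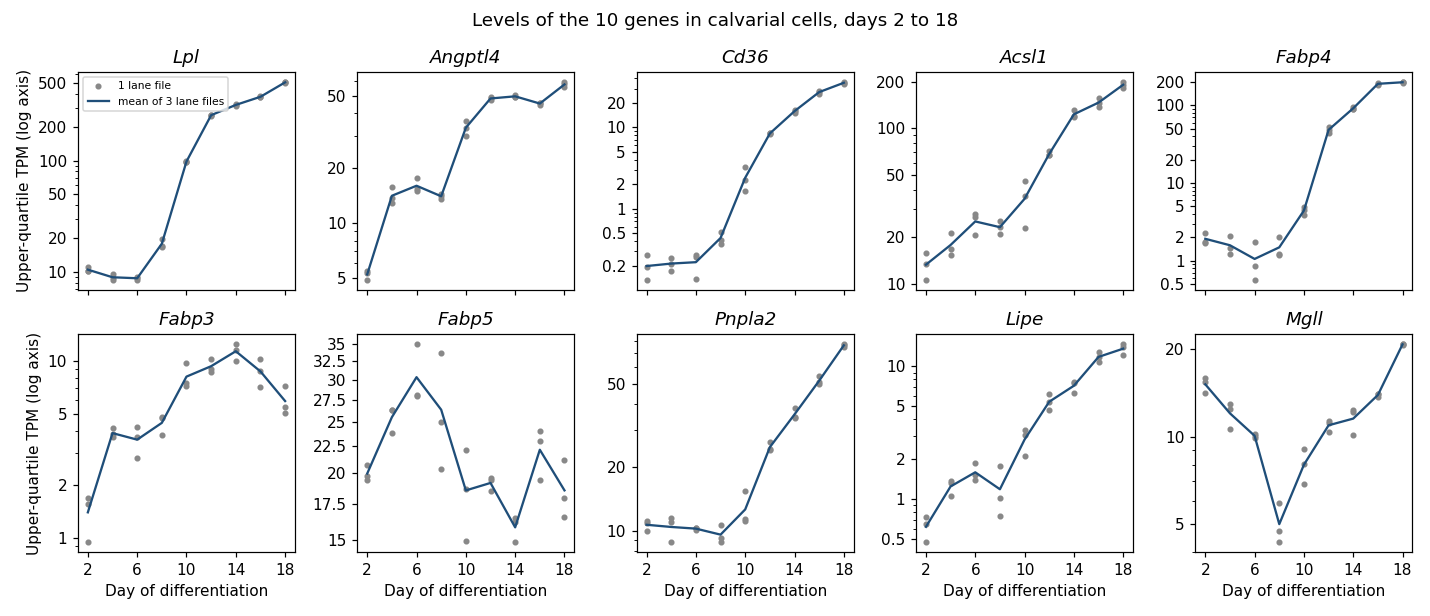
Upper-quartile scaled TPM (log axis, with its own range for each gene) against day of differentiation for the 10 genes. Grey points are the 3 lane profiles of a day and the line joins their means: Lpl, Cd36, Fabp4, Acsl1 and Pnpla2 climb after day 8, while Fabp5 stays between 15.8 and 30.3 TPM and Mgll has its low point on day 8.

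Lipoprotein lipase, encoded by Lpl (NCBIM37 chromosome 8, 71404390 to 71431347, plus strand), reached the highest level of the group. It stood at 10.5, 8.95 and 8.76 TPM on days 2, 4 and 6. Days 8 to 16 gave 17.9, 98.2, 256, 317 and 375 TPM, and day 18 gave 505 ± 5.52 TPM (SD, n = 3). The first 3 days lay below all later ones, and each day after day 6 was higher than the one before. The largest single step, 2.42 on the log2 scale, was from day 8 to day 10, and the highest day was 57.6-fold above the lowest. The fitted log2 change was 6.60 (SE 0.75, adjusted p = 8.92e-05 by edgeR's quasi-likelihood test). RSEM shared a part of the Lpl reads with other transcripts, since its count was a whole number in only 1 of 27 profiles.

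Angptl4 (chromosome 17, 33910695 to 33918520, minus strand), the lipase inhibitor, rose earlier and less far. Its level on days 2, 4, 6 and 8 was 5.22, 14.1, 16.0 and 14.0 TPM. From day 10 to day 18 it was 33.4, 48.3, 49.6, 45.3 and 57.7 TPM. The course thus had a first step between days 2 and 4 (1.35 on the log2 scale), a flat stretch to day 8 and a second step to day 10 (1.22). Over the course the fit gave a log2 change of 3.05 (SE 0.44, adjusted p = 0.000297 by the same test). Within a library, the log2 ratio of Lpl to Angptl4 was 0.94 on day 2, fell to -0.83 on day 6 and ended at 3.12 on day 18. That ratio went up with day (r = 0.859, adjusted p = 0.00754, exact permutation test over 9 days, two-sided, adjusted over 8 gene pairs; rho = 0.883), so the lipase gained on its inhibitor from day 6 on.

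Cd36 (chromosome 5, 17287508 to 17394777, minus strand) started lowest of the 10 genes and had, with Fabp4, the largest fitted changes. Its levels on days 2, 4, 6 and 8 were 0.198, 0.212, 0.221 and 0.438 TPM. They continued with 2.41, 8.43, 15.8 and 27.2 TPM on days 10 to 16 and reached 35.3 ± 0.94 TPM on day 18. The first 3 days rested on 18, 18 and 20 counts, which gives 0.43 CPM (counts scaled to the library total) on day 2 with a 95% Wilson interval of 0.269 to 0.673, for counting error only. Day 18 rested on 3037 counts, or 68.3 CPM. Days 2 to 6 were level and every later day was higher than the one before. With 0.5 TPM added before logs, the steps from day 8 to 10 and from day 10 to 12 were 1.63 and 1.62 on the log2 scale. The added 0.5 exceeds the level of day 8 and shrinks the earlier step more. In CPM, days 8, 10 and 12 stood at 0.94, 5.16 and 15.6, so the earlier step was the larger. Its fitted log2 change was 9.11 (SE 0.72, adjusted p = 1.85e-05 by edgeR). Which of Cd36 and Fabp4 changed more depended on the fit: without day 2, for instance, Fabp4 changed by 10.17 and Cd36 by 9.70.

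Acsl1 (chromosome 8, 47556395 to 47621405, plus strand), which traps fatty acids in the cell as acyl-coenzyme A, was already at 13.2 ± 2.58 TPM on day 2 and climbed more evenly. Days 4, 6 and 8 gave 17.7, 25.1 and 23.1 TPM, and day 10 gave 35.2 TPM, where the lane profiles spread most (SD 11.7, n = 3). The values of days 12 to 18 were 68.4, 123, 147 and 191 TPM. No step between neighbouring days exceeded 0.95 on the log2 scale. The fit gave a log2 change of 4.01 (SE 0.34, adjusted p = 2.26e-05 by edgeR). The log2 ratio of Cd36 to Acsl1 was -4.30 on day 2, -5.15 on day 6 and -2.42 on day 18, and it went up with day (r = 0.891, rho = 0.867, adjusted p = 0.00499, exact permutation test). Cd36 stayed the lower of these 2 genes on every day.

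The 3 fatty acid binding proteins took different courses. Fabp4 (chromosome 3, 10204347 to 10208576, minus strand), the form known from adipocytes and macrophages, stood at 1.92, 1.58, 1.06, 1.49 and 4.43 TPM on days 2 to 10. It then stepped to 48.3 ± 3.83 TPM on day 12 and reached 91.5, 189 and 198 TPM on days 14, 16 and 18. The step from day 10 to day 12, 3.31 on the log2 scale, was the steepest of any of the 10 genes, from 24 to 620 counts. Days 2 to 10 held only 11 to 24 counts each, and all of them lay below the later days. Its fitted log2 change was 8.88 (SE 1.00, adjusted p = 8.85e-05).

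Fabp5 (chromosome 3, 10012548 to 10016607, plus strand), a broadly expressed form, had the highest mean of the 10 genes on days 2 to 8 and varied by 1.92-fold in all. Its levels were 20.0 and 25.5 TPM on days 2 and 4, 30.3 ± 4.07 on day 6 and 26.3 ± 6.72 on day 8. From day 10 they were 18.6, 19.2, 15.8, 22.1 and 18.6 TPM. Days 4 to 8 lay above all other days, and day 2 lay within the range of the later ones. It fell by 0.60 on the log2 scale over the course (SE 0.22, adjusted p = 0.0437), close to the threshold. The adjusted p of Fabp5 passed 0.05 without day 4 (0.0997), day 6 (0.0830), day 8 (0.0544), day 12 (0.0637), day 14 (0.0848) or day 18 (0.123), without the lane profiles of replicate 2 (0.0609) or replicate 3 (0.0514), and with limma on log2(TPM + 0.5), where it was 0.175.

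Fabp3 (chromosome 4, 129985839 to 129992707, plus strand), the form known from heart and skeletal muscle, rose and came down again. It measured 1.39, 3.91, 3.59, 4.47 and 8.16 TPM on days 2 to 10. Its highest level was 11.4 ± 1.28 TPM on day 14, between 9.35 on day 12 and 8.73 on day 16, and it ended at 5.93 ± 1.13 on day 18. Day 2 was the lowest library and rested on 22 counts. The line gave a log2 change of 2.06 (SE 0.61, adjusted p = 0.0159), and 1.43 without day 2 (adjusted p = 0.0772). The gene overlaps Zcchc17 and Gm10570 on the other strand, and the strand setting of the counting is not given in the sources used here. Of 5 markers of skeletal muscle, Ckm was listed at 0 in all libraries, and Myod1 and Myog held 5 counts and 1 count in all. Both that were tested, Acta1 and Des, fell, beside 26.1% falling among all genes tested. The 5 markers summed to 8.76 to 18.1 TPM on days 2 to 6 and 1.66 to 2.71 TPM on days 14 to 18.

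As a result the makeup of the 3 binding proteins turned over. Fabp5 made up 85.8%, 86.7%, 59.6%, 25.0% and 8.36% of their summed TPM on days 2, 6, 10, 12 and 18. Fabp4 made up 8.24%, 3.02%, 14.2%, 62.9% and 89.0% on the same days. The share of Fabp3 was largest on day 10, at 26.2%. The log2 ratio of Fabp4 to Fabp5 passed from -1.95 on day 10 to 1.31 on day 12 and went up with day (r = 0.914, rho = 0.850, adjusted p = 0.00256, exact permutation test over 9 days). The ratios of Fabp4 to Fabp3 (r = 0.847, adjusted p = 0.00851) and of Fabp3 to Fabp5 (r = 0.802, adjusted p = 0.0144) went up as well by the same exact test. Leaving out days 2 and 18, which lie farthest from the median day, gave r of 0.943, 0.915 and 0.836 for these 3 ratios.

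Fabp4 and Fabp5 lie in 1 cluster on chromosome 3 of NCBIM37, with a gap of 187739 bp between them and 6 annotated genes over 288636 bp. The neighbours of Fabp4 in the cluster were silent or nearly so. Fabp9 and Fabp12 were listed at 0 in all libraries, and Pmp2, the myelin form, never exceeded 1.44 TPM on 143 counts in all. Pmp2 fell, while Fabp4 next to Fabp9 rose. Among 12 further lipid-binding proteins, 7 were tested. Of these, 1 rose (Rbp4), 2 fell (Fabp7 and Pmp2) and 4 were not called, beside 28.3% rising and 26.1% falling among all genes. Fabp7, the brain form, stood at 21.7 TPM on day 2 and 2.17 on day 4, and it ended at 0.85 on day 18. Dbi, which binds acyl-coenzyme A, was abundant throughout, between 542 and 775 TPM, with a fitted log2 change of 0.10.

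**Figure D2:**
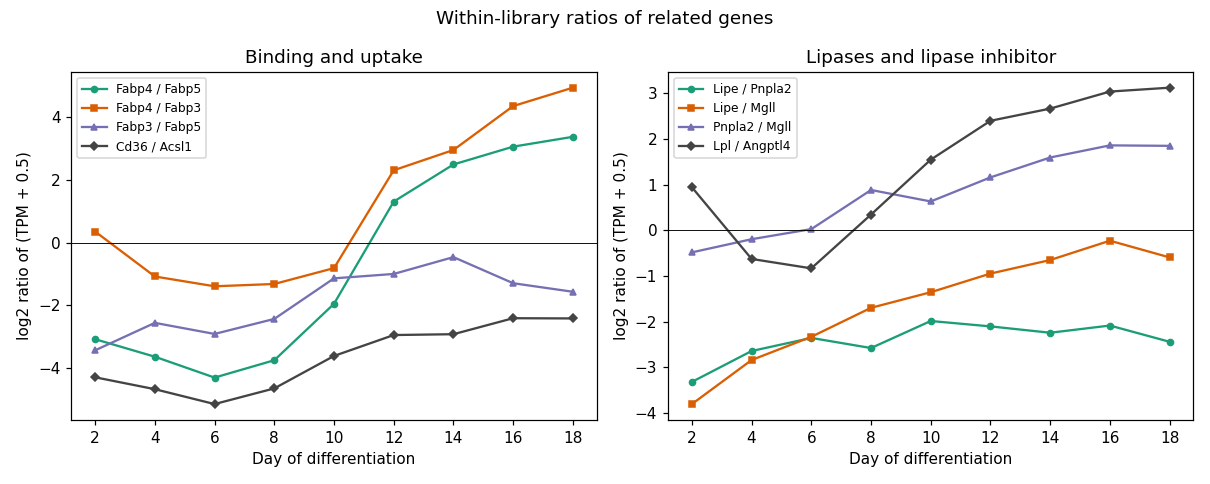
log2 ratios of TPM (each with 0.5 added) between related genes within the library of each day, for binding and uptake genes and for the lipases. The Fabp4 to Fabp5 ratio crosses 0 between days 10 and 12, the ratios to Mgll climb, and that of Lipe to Pnpla2 lies between -3.32 and -1.99.

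Pnpla2 (chromosome 7, 148641097 to 148646642, plus strand), which starts triglyceride breakdown, was flat and then rose to the end. It measured 10.7, 10.4, 10.2 and 9.59 TPM on days 2 to 8. From day 10 its levels were 12.6, 25.0, 35.8, 51.7 and 76.2 ± 1.29 TPM. Days 2 to 8 lay close together and below all later days. Its fitted log2 change was 2.95 (SE 0.37, adjusted p = 0.000138), and the largest step (0.96) was from day 10 to day 12.

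Lipe (chromosome 7, 26164546 to 26183729, minus strand) was the lowest of the 3 lipases on every day. Its levels were 0.621, 1.25 and 1.60 TPM on days 2, 4 and 6 and 1.19 ± 0.54 TPM on day 8. They were 2.82, 5.43, 7.16, 11.8 and 13.6 TPM on days 10 to 18. Days 2 to 8 lay below all later days, as in Pnpla2. It rose by a fitted 4.31 on the log2 scale (SE 0.33, adjusted p = 1.36e-05). The log2 ratio of Lipe to Pnpla2 went from -3.32 on day 2 to -1.99 on day 10 and back to -2.44 on day 18. Its r with day was 0.662 (adjusted p = 0.0421, exact permutation test), its rho was 0.600 (adjusted p = 0.0968), and without days 2 and 18 its r was 0.725 (p = 0.0726, exact permutation test over 7 days), which no longer passed the threshold with fewer days. With a pseudocount of 1 in place of 0.5 its r was 0.446 (adjusted p = 0.232 by the exact test), and without the lane profiles of replicate 3 it was 0.591 (adjusted p = 0.0836). Lipe overlaps 4732471J01Rik on the other strand.

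Mgll (chromosome 6, 88674406 to 88778354, plus strand), which splits monoglycerides and also degrades the endocannabinoid 2-arachidonoylglycerol, went down and up again. It measured 15.1, 12.0 and 10.1 TPM on days 2, 4 and 6 and 4.98 ± 0.82 TPM on day 8. It returned through 7.99, 10.9, 11.5 and 13.9 TPM on days 10 to 16 to 20.8 TPM on day 18. Day 8 was the low point and the last day the high point. The fitted line was not called (log2 change 0.39, SE 0.39, adjusted p = 0.422), whereas the spline was (adjusted p = 8.52e-06, edgeR's quasi-likelihood test). Without day 2 the line rose by 1.11 (adjusted p = 0.0192), and without day 18 it was -0.0026 (adjusted p = 0.997). The depth of the trough depended on the unit: the transcript length that RSEM averaged for Mgll was 3508 bases on day 8 and 2178 on day 6, and in CPM, which use no length, days 6, 8 and 10 stood at 12.9, 11.02 and 12.3, with 95% Wilson intervals of 11.9 to 14.1, 9.89 to 12.3 and 10.9 to 13.8. Mgll overlaps Gm16628 on the other strand.

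Among the 3 lipases the makeup changed from Mgll to Pnpla2. Mgll made up 57.3% of their summed TPM on day 2, 31.6% on day 8 and 18.8% on day 18. Pnpla2 made up 40.4%, 60.8% and 68.9%, and Lipe 2.35%, 7.55% and 12.3%, on the same days. The ratios of Lipe to Mgll (r = 0.955, rho = 0.983) and of Pnpla2 to Mgll (r = 0.976, rho = 0.967) both went up with day (adjusted p = 0.000154 each, exact permutation test). Without days 2 and 18 these r were 0.994 and 0.969.

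The order of the 10 genes by level was rearranged over the course. On day 2 it ran from Fabp5 through Mgll, Acsl1, Pnpla2, Lpl, Angptl4, Fabp4, Fabp3 and Lipe to Cd36. On day 18 it ran from Lpl through Fabp4, Acsl1, Pnpla2, Angptl4, Cd36, Mgll, Fabp5 and Lipe to Fabp3. On day 2 the neighbours Mgll and Acsl1, Acsl1 and Pnpla2, and Pnpla2 and Lpl differed by less than the larger of their SDs over lane profiles, as did Fabp4 and Acsl1, and Mgll and Fabp5, on day 18. Lpl moved from the fifth place to the first, and Fabp5 from the first to the eighth.

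The steps between neighbouring days set the genes in an order in time, which has no test because a day was counted as 1 library. In log2(TPM + 0.5), Angptl4 and Fabp3 took their largest upward step from day 2 to day 4. Lpl, Cd36 and Lipe took it from day 8 to day 10, and Fabp4, Acsl1 and Pnpla2 from day 10 to day 12. The interval of Lipe depended on the unit, as its averaged transcript length was 2935 bases on day 8 and 2416 on day 10. In CPM, Lipe stood at 1.11, 2.15, 2.15, 3.96 and 7.80 on days 2, 4, 8, 10 and 12. Its CPM steps to days 4, 10 and 12 were close in size, and that to day 12 was the largest. The step of Fabp4 matched in its interval those of the adipocyte genes Adipoq (3.42 on the log2 scale), Cidec (4.92) and Plin1 (2.95), which were all largest from day 10 to day 12. The steps of Pparg (1.56) and Cebpa (1.84), which encode the transcription factors of adipocyte formation, were largest from day 8 to day 10, like that of Lpl. Of the other adipocyte markers, Cfd was steepest from day 10 to day 12, Retn from day 12 to day 14 and Lep from day 14 to day 16. Among 7 macrophage markers, Cd68 (1.95) and Lyz2 (1.46) were steepest from day 8 to day 10 and Itgam (1.05) from day 10 to day 12. Csf1r (1.03), Ptprc (1.13), Emr1 (1.29) and Cd14 (1.34) were steepest from day 16 to day 18. Osteoblast markers shared these intervals in part. Ibsp (3.60) and Runx2 (0.31) were steepest from day 10 to day 12 and Phex (1.73) from day 8 to day 10. Bglap (2.28) was steepest from day 12 to day 14, Dmp1 (1.07) from day 14 to day 16 and Col1a1 (0.55) from day 2 to day 4. Alpl and Sp7 had their largest step downward, from day 2 to day 4, and Alpl rose by 2.64 from day 8 to day 10.

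**Figure D3:**
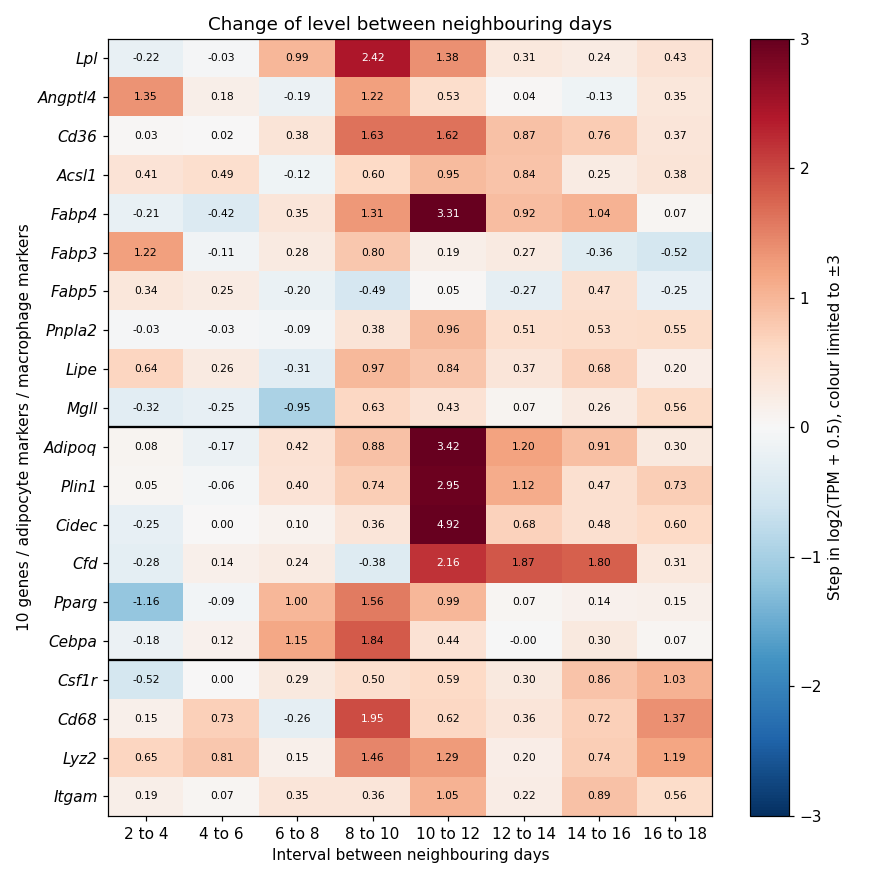
Change of log2(TPM + 0.5) between neighbouring days (columns) for the 10 genes, 6 adipocyte markers and 4 macrophage markers (rows), with red for higher and blue for lower on the later day. On this scale the largest steps of Lpl, Cd36 and Lipe fall from day 8 to day 10. That of Fabp4, with Adipoq, Plin1 and Cidec, falls from day 10 to day 12.

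Across the 9 libraries, Lpl, Cd36, Fabp4, Lipe, Pnpla2, Acsl1 and Angptl4 moved closely together. Their 21 pairwise r of log2 levels ran from 0.803 (Pnpla2 and Angptl4) to 0.991 (Lipe and Acsl1), as a description over 9 days that share a common trend. Among 7648 genes of at least 10 TPM, the gene most like Fabp4 was Adipoq (r = 0.998), followed by Gpd1 and Plin1, with Adipoq at 0.204 TPM on day 2 and 92.0 on day 18. The gene most like Lpl was Pcp4 (r = 0.998), that most like Cd36 was Scg2 (r = 0.998), and that most like Lipe was Ndrg2 (r = 0.994). The nearest to Pnpla2 was Adipor2 (r = 0.992), an adiponectin receptor gene, followed by Lyz1 and Plod2 (r = 0.987 each). Dapk1 was nearest to Angptl4 (r = 0.993) and Ifi30 to Acsl1 (r = 0.991). Mgll (Frmd6, r = 0.934), Fabp5 (Tmem33, r = 0.955) and Fabp3 (Zfp60, r = 0.981) had neighbours less close. These lists were taken from 9 values per gene.

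Markers of adipocytes and of macrophages rose with the genes that rose, and so did 6 of 8 osteoblast markers. Among all genes tested, 28.3% rose and 26.1% fell, the shares to set beside each count of markers below. The osteoblast markers had a median log2 change of 4.51. Bglap rose by 11.27, Ibsp by 9.55, Phex by 8.23 and Dmp1 by 6.79, while Sp7 and Alpl were not called. Of 8 adipocyte markers (Adipoq, Plin1, Cfd, Cidec, Retn, Lep, Pparg and Cebpa), 7 were tested and all 7 rose, with a median log2 change of 11.21. The summed level of the adipocyte markers was 3.38 to 6.92 TPM on days 2 to 6 and 149 to 310 TPM on days 14 to 18. Lep, with 124 counts in all, was listed at 0 on 5 days, Retn on 4, and Cidec and Cfd on 2 each. The fitted changes of Retn, Cidec and Cfd thus start from levels at or near 0. Among 7 genes typical of macrophages and monocytes, 6 rose (Lyz2, Cd68, Itgam, Emr1, Csf1r and Ptprc) and Cd14 was not called. Their summed level was 24.1 to 61.7 TPM on days 2 to 6 and 522 to 2014 TPM on days 14 to 18, most of it Lyz2, and none was at 0 on every day. Lpl, Cd36, Fabp4 and Fabp5 are known in both adipocytes and macrophages. Of 5 endothelial markers, Tie1 was at 0, Cdh5 and Tek rose and Kdr fell. Pecam1, with 68 counts in all and at most 0.34 TPM, was not tested. The endothelial sum was 3.24 to 3.95 TPM early and 8.84 to 12.0 TPM late. The 4 cartilage markers summed to 106 to 129 TPM early and 92.5 to 122 TPM late. Of these, Sox9 (log2 change 1.26) and Col10a1 (2.24) rose, Col2a1 (-1.27) fell and Acan was not called. The part of these cell types in the rise of the 8 genes was not tested.

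**Figure D4:**
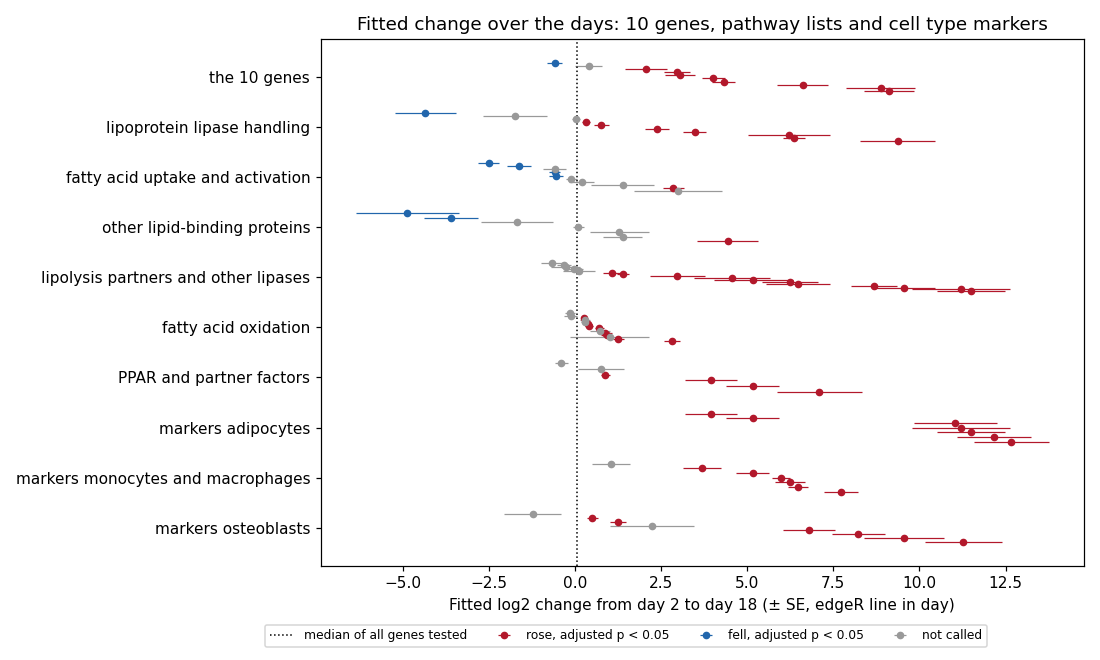
Fitted log2 change from day 2 to day 18 with its SE (horizontal axis) for each tested gene of the 10 genes, of the pathway lists and of marker lists, coloured by call at an adjusted p of 0.05. The dotted line is the median of all genes tested, 0.05, and 8 of the 10 genes lie to its right as rises.

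Genes that handle lipoprotein lipase and lipoproteins moved in part with Lpl. Of 13 listed, 10 were tested, with a median log2 change of 1.57. Of these, 7 rose, 1 fell and 2 were not called, beside 28.3% rising and 26.1% falling among all genes. Gpihbp1, which anchors the lipase to capillary endothelium, was listed at 0 in all libraries. Lmf1, needed to fold the lipase, rose by 0.76 (10.5 TPM on day 2), and its partner Sel1l by 0.31. Apoe, an apolipoprotein, went from 3.00 TPM on day 2 to 189 on day 18, a log2 change of 6.36 (SE 0.32). Vldlr, a lipoprotein receptor gene, rose by 2.38 and Pltp, for phospholipid transfer protein, by 3.48. The fall was that of Lipg, endothelial lipase, at 0.72 TPM or less.

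Of 13 other uptake and activation genes, 10 were tested, 1 rose, 4 fell and 5 were not called, beside 28.3% rising and 26.1% falling among all genes, with a median log2 change of -0.33. Slc27a1, a fatty acid transporter, rose by 2.85, from 3.08 TPM on day 2 to 20.3 on day 18. The genes that fell were Acsl4 (-2.51), Acsl5 (-0.60) and Acsl3 (-0.55), which activate fatty acids as Acsl1 does, and Cav1 (-1.63), the caveolar coat protein. Acsl4 stood at 38.8 TPM on day 2 and 9.52 on day 18, while Acsl1 went from 13.2 to 191 TPM, so that the 2 genes changed places between day 8 (32.8 and 23.1 TPM) and day 10 (12.7 and 35.2 TPM).

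The partners of the lipases mostly rose. Of 17 listed, 16 were tested, with a median log2 change of 3.76. Of these, 11 rose and 5 were not called, beside 28.3% rising and 26.1% falling among all genes. Plin1 and Cidec, which coat lipid droplets and are also on the adipocyte list, rose by 11.49 and 11.21. G0s2, an inhibitor of Pnpla2, rose by 6.47, from 0.115 TPM on day 2 to 28.5 on day 18. Abhd5, the activator of Pnpla2, was the most abundant of this list on average and was not called (-0.33, SE 0.19, adjusted p = 0.171), between 54.7 and 100.1 TPM. Lipa, the lysosomal acid lipase, rose by 1.38, from 37.0 to 107 TPM. Aqp7, a glycerol channel, rose by 8.67 but did not pass 3.78 TPM, and the β-adrenergic receptor genes Adrb1 and Adrb3 rose while staying under 2 TPM.

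Of 15 genes of fatty acid oxidation, 14 were tested, with a median log2 change of 0.55. Of these, 8 rose and 6 were not called, beside 28.3% rising and 26.1% falling among all genes. Ucp2, a mitochondrial carrier, had the largest of these rises (2.82), and Acadm (1.25), Cpt2 (0.91) and Cpt1a (0.87), for enzymes of fatty acid entry and oxidation in mitochondria, followed. Of 6 PPAR genes and partners, 4 rose and 2 (Ppara and Ppard) were not called. Pparg rose by 3.94, from 5.15 TPM on day 2 and 1.88 on day 6 to 35.1 on day 18, and Ppargc1a by 7.09. Pparg and Cebpa also stand on the adipocyte list. Rxra, the partner receptor, rose by 0.88, from 26.2 to 46.9 TPM.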

How the data were processed

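RNA of sorted mouse calvarial cells was profiled on 9 days (27 profiles). Per the labels, cDNA was amplified (NuGEN Ovation) before TruSeq libraries were made. The authors aligned reads with Bowtie 0.12.9 and quantified genes with RSEM (1.2.8 in the submitters' processing notes) on NCBIM37. The deposited expected counts are RSEM's estimates and were not normalized. The deposited TPM are scaled to a common total and divide by an average transcript length. The deposited FPKM are scaled by length and by aligned fragments. Amplification and the averaged length can both shift levels.

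Genes were named from the GENCODE annotation of NCBIM37 (37205 of 37991). The members and lists were chosen with earlier results of these data known. The named genes are the 10 members, the fixed pathway and marker lists, and the 3 genes of at least 10 TPM nearest in r to each member. Emr1 stands for Adgre1 and Gyk for Gk.

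The 3 lane profiles of a day were summed and rounded. Totals per day were 22470195 to 62009157 counts. edgeR 4.0.16 in R 4.3.3 was run with upper-quartile factors, filterByExpr (minimum count 10) and a line or a spline in day. The line was tested on simulated counts, with an outcome not given here, and nothing is concluded from it. TPM were scaled to the mean upper quartile, and 0.5 was added before logs. Ratios were tested by exact permutation over 9 days (scipy 1.17.1), adjusted over 8 pairs. Intervals are Wilson intervals and cover counting error only. Neighbouring days share a trend, so the p-values of the line and the spline measure scatter about the fit. Those of the ratios treat the 9 days as exchangeable, and a smooth drift alone can make them small. Lane profiles with the same number did not deviate together (mean r of 0.0016, against -0.0008 for different numbers). Alternatives were TMM, DESeq2 1.42.0, other filters, limma 3.58.1, 27 profiles with and without a block, early against late days, each lane profile or day left out, other pseudocounts and other units.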

Additional observations from a re-analysis of the deposited data

How the results depend on the processing

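Over 210 comparisons of a member's log2 change with an alternative, 198 kept direction and side of the threshold. The 8 rises stood in number under every alternative run, and without day 2 the 8 held Mgll in place of Fabp3. The number of members that fell was 0 with limma and without days 4, 6, 8, 12, 14 or 18, and 0 to 1 with a replicate left out. Without day 18 the change of Mgll was -0.0026. The ratio of Lipe to Pnpla2 had r of 0.446 with a pseudocount of 1, 0.725 without the first and the last day, and 0.591 to 0.675 with a replicate left out. With the 27 profiles and a replicate block, which treats lanes as samples, the change of Fabp5 was -0.60 and that of Mgll 0.39, and no call of a member changed. The spline also called 10 members with TMM factors and with every gene of at least 1 count, and a quadratic in day called 9. Genes that rose numbered 3623 to 5540 and genes that fell 3247 to 5341 over the alternatives. Levels in FPKM as deposited were lower, with a mean of 108 for Lpl against 177 TPM. The low counts of Cd36 and Fabp4 on days 2 to 8, and 1 library per day, limit the precision of early levels and leave single steps without a test.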
